A study of Mus musculus with 3 samples.

Results

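The genes described here are 9 genes of large blood vessels, *Bmx*, *Fbln5*, *Fbln2*, *Cytl1*, *Mgp*, *Eln*, *Prss23*, *Amigo2* and *Bgn*, which are used as markers of arterial and venous endothelial cells (ECs). They were found by symbol, and all 9 have a row among the 24346 gene symbols of the bulk RNA-seq table. The samples are wild type ECs of adult C57BL/6J lung, taken fresh from the tissue without culture, in 3 libraries of 1 condition named S38, S44 and S52. The study's methods give male mice aged 6 to 8 weeks and a VE-cadherin antibody injected before harvest. Tissue was digested with collagenase and dispase, and cells were sorted after staining for CD31, CD45 and Podoplanin. For kidney, the study describes the endothelial fraction as positive for CD31 and VE-cadherin and negative for CD45 and Podoplanin. Its text does not give these gates for lung separately. The sources used here do not say whether a library came from 1 mouse or from several, so an SD describes the spread between these libraries only. With 1 condition there was no contrast to test, and an exact test of 3 values against 3 cannot go below p = 0.10.

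Most lung ECs line capillaries, while arteries and veins supply a small part of the endothelium and differ from capillaries in the matrix they make. Arteries stretch with each heartbeat and recoil on elastic fibres, in which a core of cross-linked elastin is laid down on microfibrils with the help of fibulins. Smooth muscle cells and fibroblasts of the vessel wall make the same matrix proteins, so these transcripts are not endothelial by definition. In a bulk library, fewer cells of a type and less RNA per cell cannot be told apart.

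Values are FPKM, fragments scaled to gene length and to the mapped fragments of the library, as the authors deposited them. Depth was estimated from the steps of low values as 38000000 (S38), 38800000 (S44) and 33900000 (S52) fragments. A gene of 2000 bases at 0 could then have been present at up to 0.0478 FPKM, which covers counting error only and is the highest limit of the 3 libraries. Pan-endothelial genes were high, with list medians of 482 (S38), 533 (S44) and 484 (S52) FPKM, from a mean of 62.4 FPKM for *Erg* to 1416 FPKM for *Cldn5*. Single genes of that list were less even than its median, with highest libraries 1.97-fold (*Erg*), 1.71-fold (*Emcn*), 1.68-fold (*Cldn5*) and 1.60-fold (*Kdr*) above the lowest. S52 stood apart in platelet and alveolar type 2 transcripts, and S44 was the low library for genes of smooth muscle and pericytes. The platelet list had medians of 244, 216 and 9.11 FPKM and the alveolar type 2 list 182, 121 and 33.7 FPKM, in the order S38, S44, S52.

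The sequences before the start sites of the large-vessel genes varied widely in CpG content. The promoter windows are those of RefSeq on GRCm38.p6, which hold 14 entries for 7 of the 9 genes, and *Mgp* and *Eln* have none. In the 250 bases before the start, CpG dinucleotides numbered 4 in *Bmx* and in *Cytl1*, 7 in *Bgn*, 8 in *Fbln2* and 38 in *Amigo2*. The median over all 32851 entries was 6, with quartiles of 2 and 16, and 92.1% of entries held at least 1 CpG. *Fbln5* had 21 CpG before its outer start and 6 before its inner one, and the 7 starts of *Prss23* ranged from 2 to 34. The last 100 bases before the start are printed for 4 genes to show this range, with each CpG in capitals (the motif reads the same on both strands). They lie at chrX:164258194-164258293 on the minus strand for *Bmx*, chr5:37735419-37735518 on the plus strand for *Cytl1*, chr12:101819120-101819219 on the minus strand for *Fbln5* and chr15:97247288-97247387 on the minus strand for *Amigo2*.
Bmx: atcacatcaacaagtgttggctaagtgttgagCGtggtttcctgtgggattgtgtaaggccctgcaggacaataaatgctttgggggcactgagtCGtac
Cytl1: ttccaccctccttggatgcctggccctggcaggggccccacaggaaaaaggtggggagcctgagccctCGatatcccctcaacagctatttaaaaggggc
Fbln5: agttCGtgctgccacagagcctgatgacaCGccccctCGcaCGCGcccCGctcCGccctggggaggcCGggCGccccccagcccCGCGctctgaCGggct
Amigo2: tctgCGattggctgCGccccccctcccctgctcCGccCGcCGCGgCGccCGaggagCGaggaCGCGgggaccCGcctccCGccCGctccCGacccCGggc
The stretch holds 2 CpG in *Bmx*, 1 in *Cytl1*, 12 in *Fbln5* and 16 in *Amigo2*. Over the 250 bases *Bmx* and *Cytl1* held the same number of CpG, and *Cytl1* was above *Bmx* in every library.

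All 9 genes were detected, meaning a mean of at least 1 FPKM, which 48.3% of all genes of the table reached. Their levels are given here in 3 ranges, set for description and not by the gaps between genes. *Mgp* and *Bgn* lay above 100 FPKM in every library, *Prss23*, *Cytl1*, *Amigo2* and *Eln* between 23.4 and 91.6 FPKM, and *Fbln2*, *Fbln5* and *Bmx* between 4.12 and 11.1 FPKM. The median of the 9 means was 28.3 FPKM, against 11.2 FPKM over the 11770 detected genes. In the order of means, *Mgp* stood above *Bgn*, *Bgn* above *Prss23*, *Cytl1* above *Amigo2*, *Eln* above *Fbln2* and *Fbln5* above *Bmx* in all 3 libraries and without overlap of their ranges. The other neighbours did not differ beyond their spread. *Prss23* and *Cytl1*, *Amigo2* and *Eln*, and *Fbln2* and *Fbln5* overlapped, and each of these pairs changed places in 1 of the 3 libraries.

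**Figure D1:**
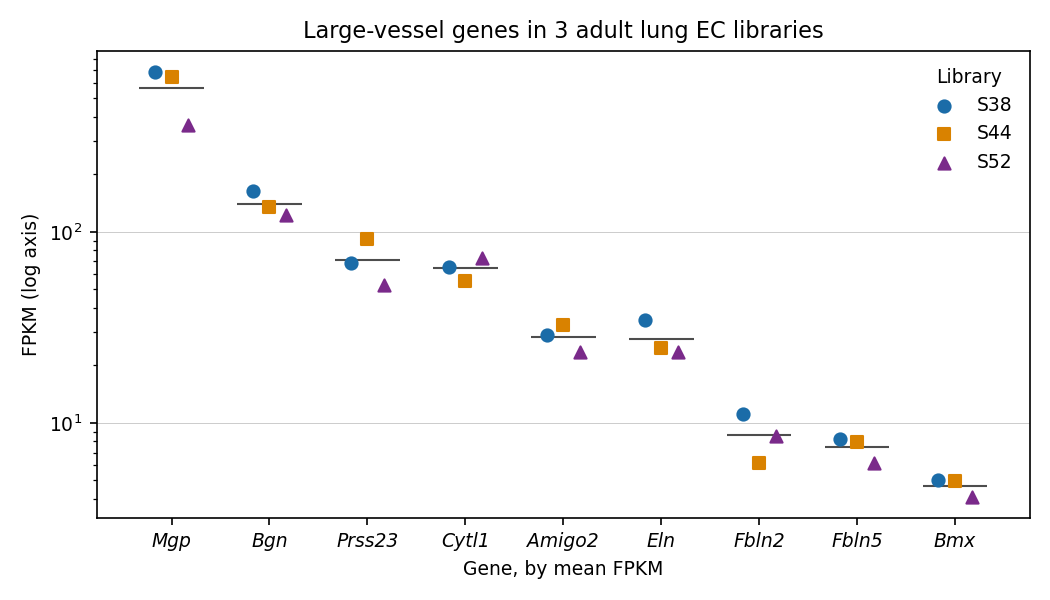
FPKM (log axis) of the 9 large-vessel genes in each library, with 1 point per library and a line at the mean of 3 libraries. *Mgp* is highest, at 361 to 686 FPKM, *Bmx* is lowest, at 4.12 to 5.0 FPKM, and the points of *Mgp* show S52 apart from S38 and S44.

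*Bmx* encodes a cytoplasmic tyrosine kinase of the Tec family that is known from arterial endothelium and also from myeloid cells. It lies on the minus strand of chromosome X from 164192842 to 164258193 (GRCm38, GENCODE M21), and its longest basic transcript has 19 exons. It was the lowest of the 9 genes, with 5.0 FPKM (S38), 4.96 FPKM (S44) and 4.12 FPKM (S52), a mean of 4.69 ± 0.498 FPKM (SD, n = 3). It also had the smallest spread of the 9, with a highest library 1.21-fold above the lowest. These values stand for an estimated 319 to 437 fragments on its shorter transcript, for which counting alone gives an error of 4.78 to 5.60%. Relative to *Pecam1*, the CD31 gene, its level was 0.402 ± 0.0455% (SD, n = 3). Of the 4 other Tec kinases, which act mainly in leukocytes, 2 were detected, and neither reached 1 FPKM in S52. *Btk*, the B cell and myeloid member, had 5.21 FPKM (S38), 3.91 FPKM (S44) and 0.161 FPKM (S52). *Tec* had 2.02 FPKM (S38), 1.89 FPKM (S44) and 0.523 FPKM (S52). The 7 neutrophil and leukocyte genes, of which 5 were detected, summed to 64.6 FPKM (S38), 84.3 FPKM (S44) and 23.6 FPKM (S52). Among them *S100a8* had 13.6 FPKM (S38), 17.8 FPKM (S44) and 0.251 FPKM (S52), and *S100a9* had 20.5, 29.1 and 2.58 FPKM. *Csf3r*, the G-CSF receptor gene of neutrophils, stayed below 1 FPKM in each library, with 0.302, 0.291 and 0.549 FPKM. A gate negative for CD45, which the study states for kidney, removes leukocytes. *Ptprc*, the CD45 gene, had 4.30 FPKM (S38), 2.06 FPKM (S44) and 0.434 FPKM (S52). The part of leukocytes in the level of *Bmx* was not tested.

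*Fbln5*, *Fbln2* and *Eln* belong to the elastic fibre. Fibulin-5 binds elastin and integrins and is needed for fibre assembly, fibulin-2 is found in the inner elastic layer of arteries, and elastin is the rubber-like core. *Fbln5* (chromosome 12, 101746565 to 101819055, minus strand, 11 exons) had 8.27 FPKM (S38), 7.97 FPKM (S44) and 6.21 FPKM (S52), a mean of 7.48 ± 1.11 FPKM (SD, n = 3). S38 and S44 were close together and S52 below them. *Fbln2* (chromosome 6, 91212455 to 91272540, plus strand, 18 exons) had 11.1 FPKM (S38), 6.16 FPKM (S44) and 8.54 FPKM (S52), a mean of 8.61 ± 2.49 FPKM (SD, n = 3). Here S44 and not S52 was lowest, and the highest library was 1.81-fold above it. *Eln* (chromosome 5, 134702593 to 134747323, minus strand, 37 exons) had 34.6 FPKM (S38), 24.7 FPKM (S44) and 23.4 FPKM (S52), a mean of 27.6 ± 6.16 FPKM (SD, n = 3). S38 was the high library and the others were close together. Levels of *Eln* exceeded those of *Fbln5* and *Fbln2* in all 3 libraries. An antisense gene, *Gm30003*, shares 267 exonic bases with *Eln*, and reads without strand cannot be told apart there (*Gm30003* itself was not analysed here).

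Most other genes of elastic fibres had lower means than *Eln*, the exceptions being *Mfap2*, *Mfap4* and *Ltbp4*. Of 20 genes for further fibulins, fibrillins, lysyl oxidases, emilins, microfibril proteins and latent TGF-beta binding proteins, 17 were detected, with a list median of 5.43 FPKM. The highest was *Mfap2*, a microfibril protein, at 105 ± 8.58 FPKM (SD, n = 3), and the lowest detected was *Loxl4*, a lysyl oxidase, at 1.07 ± 0.544 FPKM (SD, n = 3). Among fibulin genes, *Efemp2*, the gene of fibulin-4, was at 22.1 ± 2.73 FPKM, above *Fbln5* and *Fbln2* in every library. *Efemp1*, with 15.4 FPKM (S38), 11.1 FPKM (S44) and 5.62 FPKM (S52), was above both in S38 and S44 and below both in S52. *Fbln1* was at 4.83 ± 1.91 FPKM, and *Fbln7* was at 0.186 FPKM at most (SD, n = 3 for each mean). *Lox*, whose enzyme cross-links elastin, had 5.24 FPKM (S38), 2.93 FPKM (S44) and 3.67 FPKM (S52), the same order of libraries as *Fbln2*. *Fbn2*, the fibrillin of embryonic tissue, was the one gene of this list listed at 0 in all libraries. Over 2-fold differences between libraries were found in 7 of the 17 detected genes, against 20.1% of all detected genes. That share depended on level, at 34.5% with a minimum mean of 0.1 FPKM and 8.74% with a minimum of 10 FPKM.

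Transcripts of cells that also make elastic matrix were present beside these genes. All 10 smooth muscle and pericyte genes were detected, and they summed to 242 FPKM (S38), 145 FPKM (S44) and 228 FPKM (S52). *Tagln*, which encodes a smooth muscle actin-binding protein, led them with 92.3 FPKM (S38), 63.3 FPKM (S44) and 81.6 FPKM (S52), and *Cspg4*, a pericyte proteoglycan gene, was lowest with 0.900, 0.670 and 1.81 FPKM. All 10 were lowest in S44, as were *Fbln2* and *Cytl1*, while *Eln* and *Fbln5* were not. For *Eln* the values of S44 and S52 were close. S44 was lowest only with each library rescaled to the same sum, and S52 was lowest as deposited and with the other scalings. That rescaling shifted the median difference of S44 from S38 over all detected genes from -0.033 to -0.44. All 8 fibroblast genes were detected, with a summed level of 85.6, 81.8 and 70.8 FPKM, led by *Dpt* with 30.8 ± 2.84 FPKM, and *Col14a1* was lowest with 1.43 ± 0.299 FPKM (SD, n = 3 both times). The 5 cartilage genes all stayed below a mean of 1 FPKM, with sums of 0.795, 0.0882 and 0.421 FPKM. The part of these cells in the levels of *Fbln2*, *Fbln5* and *Eln* was not tested.

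*Mgp* encodes matrix Gla protein, a small secreted protein that keeps vessel walls from calcifying. Its gene (chromosome 6, 136872435 to 136875823, minus strand, 4 exons) had 686 FPKM (S38), 645 FPKM (S44) and 361 FPKM (S52), a mean of 564 ± 177 FPKM (SD, n = 3). Ranked 186 by its mean, it stood above 99.2% of all genes, and it reached 61.0% of *Pecam1* in S38, 53.0% in S44 and 31.0% in S52. S38 and S44 lay close together and S52 below them, a 1.90-fold range that was the widest of the 9 genes. *Mgp* has a short transcript of 617 bases, so 5717 to 11918 estimated fragments stand behind these values. On the log2(FPKM + 1) scale, S52 was 0.92 below S38 and 0.83 below S44. Those differences stood at percentiles 9.08 and 9.03 of the detected genes. In the same libraries the median difference of S52 from S38 was -2.34 for 5 alveolar type 2 genes, -5.01 for 4 platelet genes and 0.092 for 10 pan-endothelial genes. Against S44 these medians were -1.46, -4.67 and -0.056. The pan-endothelial genes went both ways against S38, from -0.68 for *Kdr* to 0.77 for *Emcn*. For lists of EC types, the median difference of S52 from S38 was 0.029 (arterial), -0.22 (venous), -0.36 (lung capillary) and -1.92 (lymphatic). From S44 it was 0.031, -0.36, -0.58 and -2.06 in the same order of lists, with 20, 13, 10 and 4 detected genes. Each of these lists went both ways against S38. Arterial genes ran from -1.05 (*Serpine2*) to 0.93 (*Gja4*) and detected venous genes from -1.54 (*Slc6a2*) to 0.12 (*Vcam1*). Lung capillary genes ran from -1.44 (*Fibin*) to 0.42 (*Gpihbp1*), and detected lymphatic genes from -4.05 (*Mmrn1*) to 0.27 (*Pdpn*). For cells that also make matrix, the median difference of S52 was -0.058 from S38 and 0.75 from S44 over the mural genes, and -0.31 and -0.18 over the fibroblast genes. Whether material of other cells bears on the level of *Mgp* was not tested.

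The Gla residues that give *Mgp* its name are made by a vitamin K dependent carboxylase. Its gene *Ggcx* was at 10.9 ± 1.68 FPKM and *Vkorc1*, whose enzyme recycles vitamin K, at 36.7 ± 2.15 FPKM (SD, n = 3 for each). All 5 genes of this list were detected in every library. None differed by over 2-fold between libraries, against 20.1% of all detected genes. Of the other substrates, *Pros1*, the anticoagulant protein S, led the list at 72.7 ± 12.1 FPKM and *Gas6* was at 33.1 ± 2.69 FPKM (SD, n = 3 for each). The lowest was *Vkorc1l1* at 9.64 ± 0.250 FPKM (SD, n = 3).

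*Cytl1* encodes a small secreted cytokine-like protein known from cartilage and large vessels. The gene (chromosome 5, 37735519 to 37739820, plus strand, 4 exons) had 65.5 FPKM (S38), 55.6 FPKM (S44) and 73.0 FPKM (S52), a mean of 64.7 ± 8.73 FPKM (SD, n = 3). It was the only 1 of the 9 genes that was highest in S52. That order depended on the scaling, since with each library rescaled to the same sum S38 was highest. Of the cartilage genes, *Matn1* was listed at 0 in all libraries, and *Col2a1* and *Acan* at 0 in S44 and S52. *Sox9* had 0.363 FPKM (S38), 0.0769 FPKM (S44) and 0.162 FPKM (S52), and *Comp* had 0.0696, 0.0113 and 0.259 FPKM. Whether cartilage cells bear on the level of *Cytl1* was not tested.

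*Prss23* encodes a secreted serine protease and serves as a marker of lung veins. It lies on chromosome 7 from 89507783 to 89527187 on the minus strand, with an antisense gene, *Prss23os*, that shares 864 of its exonic bases and cannot be told apart without strand (not analysed here by itself). It had 68.9 FPKM (S38), 91.6 FPKM (S44) and 52.5 FPKM (S52), a mean of 71.0 ± 19.6 FPKM (SD, n = 3). S44 was the high library and S52 the low one, 1.74-fold apart. *Amigo2*, which encodes a leucine-rich adhesion protein of the cell surface (chromosome 15, 97244125 to 97247287, minus strand, a single exon in its longest transcript), had 29.0 FPKM (S38), 32.4 FPKM (S44) and 23.5 FPKM (S52), a mean of 28.3 ± 4.47 FPKM (SD, n = 3). It had the same order of libraries as *Prss23* in a narrower range of 1.38-fold. *Pced1b*, on the opposite strand with 21.6 FPKM (S38), 18.2 FPKM (S44) and 17.4 FPKM (S52), shares 58 exonic bases with it. Its relatives were lower in each library, *Amigo1* at 4.98 ± 0.445 FPKM and *Amigo3* at 1.13 ± 0.526 FPKM (SD, n = 3 for each).

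*Bgn* encodes biglycan, a small leucine-rich proteoglycan that binds collagen and growth factors of the TGF-beta family. The gene (chromosome X, 73483602 to 73495933, plus strand, 8 exons) had 163 FPKM (S38), 135 FPKM (S44) and 122 FPKM (S52), a mean of 140 ± 21.1 FPKM (SD, n = 3). Its rank of 649 put it above 97.3% of all genes. S38 was the high library and the range was 1.34-fold. Of 12 other members of the proteoglycan family, 9 were detected, and each was below *Bgn* in every library. The highest by mean was *Dcn*, decorin, with 47.4 FPKM (S38), 35.5 FPKM (S44) and 19.8 FPKM (S52), so S52 was the low library here as for *Bgn*. The lowest detected was *Chad* at 2.34, 1.41 and 0 FPKM, and *Kera* and *Epyc*, the corneal and cartilage members, were listed at 0 in all libraries.

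**Figure D2:**
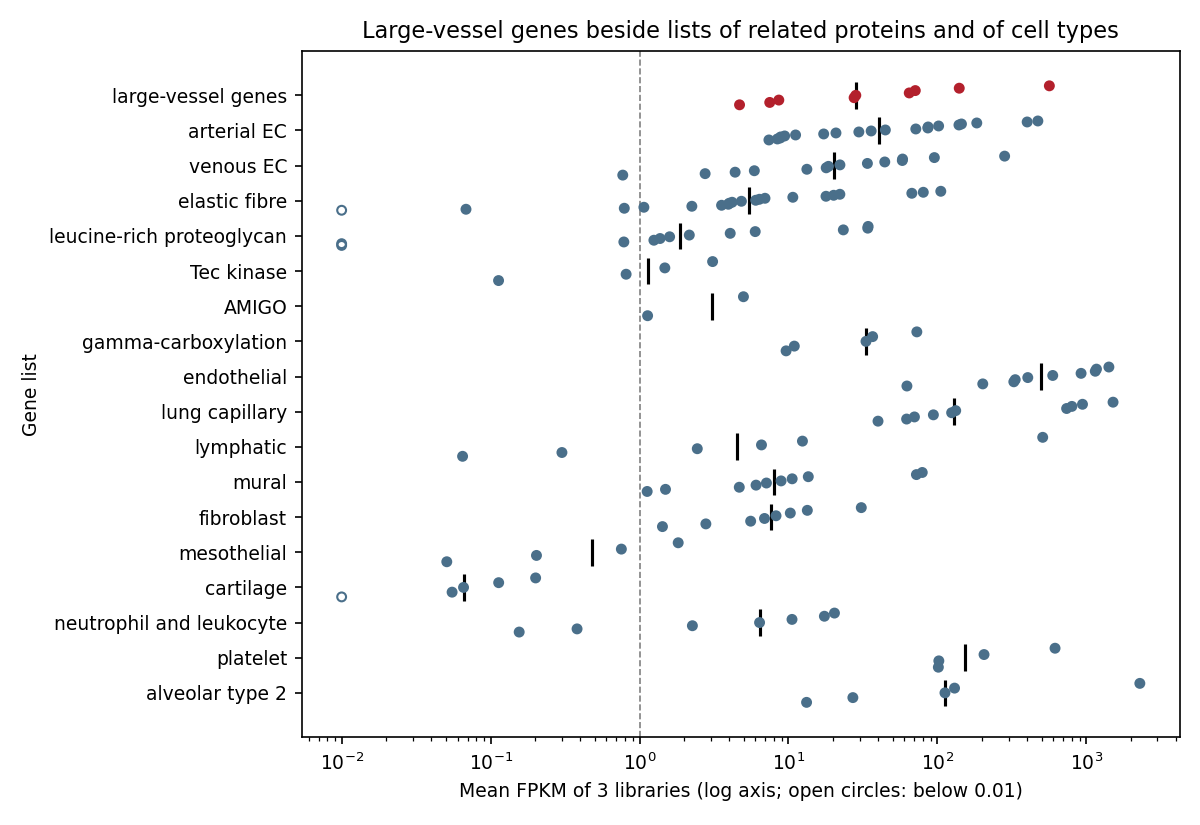
Mean FPKM of 3 libraries (log axis) for each gene of the large-vessel set and of the lists of related proteins and cell types, with a black line at each list's median and a dashed line at 1 FPKM. The median of the large-vessel genes, 28.3 FPKM, lies between the medians of the arterial (40.3 FPKM) and venous (20.3 FPKM) lists and below that of the endothelial list (499 FPKM). Single large-vessel genes run from 4.69 FPKM (*Bmx*) to 564 FPKM (*Mgp*).

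Other genes of arterial and venous endothelium had levels like those of the 9 genes. All 20 arterial genes were detected in every library, with a median of 40.3 FPKM, from *Mecom*, a transcription factor gene, at 7.39 ± 0.0282 FPKM to *Tm4sf1*, a tetraspanin-like surface protein gene, at 472 ± 52.2 FPKM (SD, n = 3 for each). Of 14 venous genes 13 were detected, with a median of 20.3 FPKM. The highest was *Vwf*, von Willebrand factor, at 282 ± 41.7 FPKM, and the lowest detected was *Nr2f2*, the transcription factor of venous identity, at 2.76 ± 0.372 FPKM (SD, n = 3 for each). *Ackr1*, a chemokine receptor of postcapillary venules, was below the threshold, with 0.709 FPKM (S38), 0.283 FPKM (S44) and 1.32 FPKM (S52). Several of these genes are not confined to large vessels, and the 10 lung capillary genes had a median of 129 FPKM, from *Aplnr* (39.9 FPKM) to *Cd36* (1510 FPKM). A bulk value does not assign any of the 9 genes to arteries or to veins, and the labels do not either.

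Between libraries the 9 genes varied about as much as other genes. None had a highest library over 2-fold above its lowest, against 20.1% of the 11770 detected genes. At a minimum mean of 10 FPKM, which 6 of the 9 genes reach, that share was 8.74%. The median range was 1.38-fold over the 9 genes and 1.40-fold over the detected genes. *Mgp* and *Fbln2* exceeded 2-fold, at 2.34 and 2.51, when each library was rescaled to the same sum, a setting in which 25.8% of the detected genes did.

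S52 was the lowest library for 7 of the 9 genes, *Cytl1* and *Fbln2* being the exceptions, against 46.3% of the detected genes. The median difference of S52 from S38 on the log2(FPKM + 1) scale was -0.36 over the 9 genes and -0.083 over the detected genes, and from S44 it was -0.22 and -0.062. With each library rescaled to the same sum, 5 of the 9 genes and 40.5% of the detected genes were lowest in S52, since *Eln* and *Bgn* were then lowest in S44. S44 was lowest for 2 of the 9 genes as deposited, against 28.2% of detected genes.

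**Figure D3:**
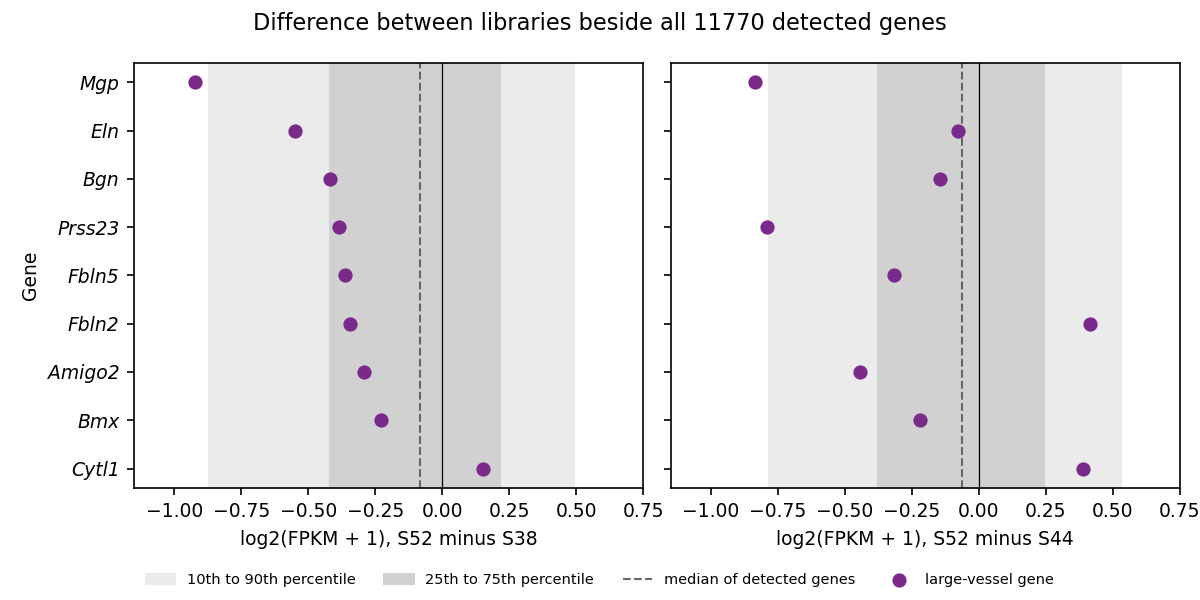
Difference in log2(FPKM + 1) of S52 from S38 (left) and from S44 (right) for each large-vessel gene, with grey bands for the percentiles of all detected genes and a dashed line at their median. *Mgp* lies beyond the 10th percentile in both panels, at -0.92 and -0.83, while *Cytl1* lies above 0 in both.

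The order of the 3 libraries divided the genes further. *Bmx*, *Fbln5*, *Mgp*, *Eln* and *Bgn* followed the order S38, S44, S52, which 26.6% of detected genes had. With scaling by the median ratio *Bmx* left this order for S44, S38, S52, and with rescaling to the sum *Eln* and *Bgn* left it for S38, S52, S44. *Prss23* and *Amigo2* followed S44, S38, S52, found in 19.7% of detected genes, in 7 of the 13 detected venous genes and in 2 of the 20 arterial genes. The same order was found in 4 of the 10 lung capillary genes, in 3 of the 5 detected leukocyte genes and in 2 of the 4 detected lymphatic genes, so it was not particular to the venous list. With rescaling to the sum both genes followed S38, S44, S52. Among those 7 venous genes was *Slc6a2*, the noradrenaline transporter gene of lung veins, with 69.4 FPKM (S38), 81.7 FPKM (S44) and 23.2 FPKM (S52). *Fbln2* followed S38, S52, S44, an order of 10.4% of detected genes and of 6 of the 10 mural genes. *Cytl1* followed S52, S38, S44, an order of 17.8% of detected genes, of 4 of the 20 arterial genes and of the other 4 mural genes. With 3 libraries there are only 6 such orders, and shared orders are described here without a test.

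**Figure D4:**
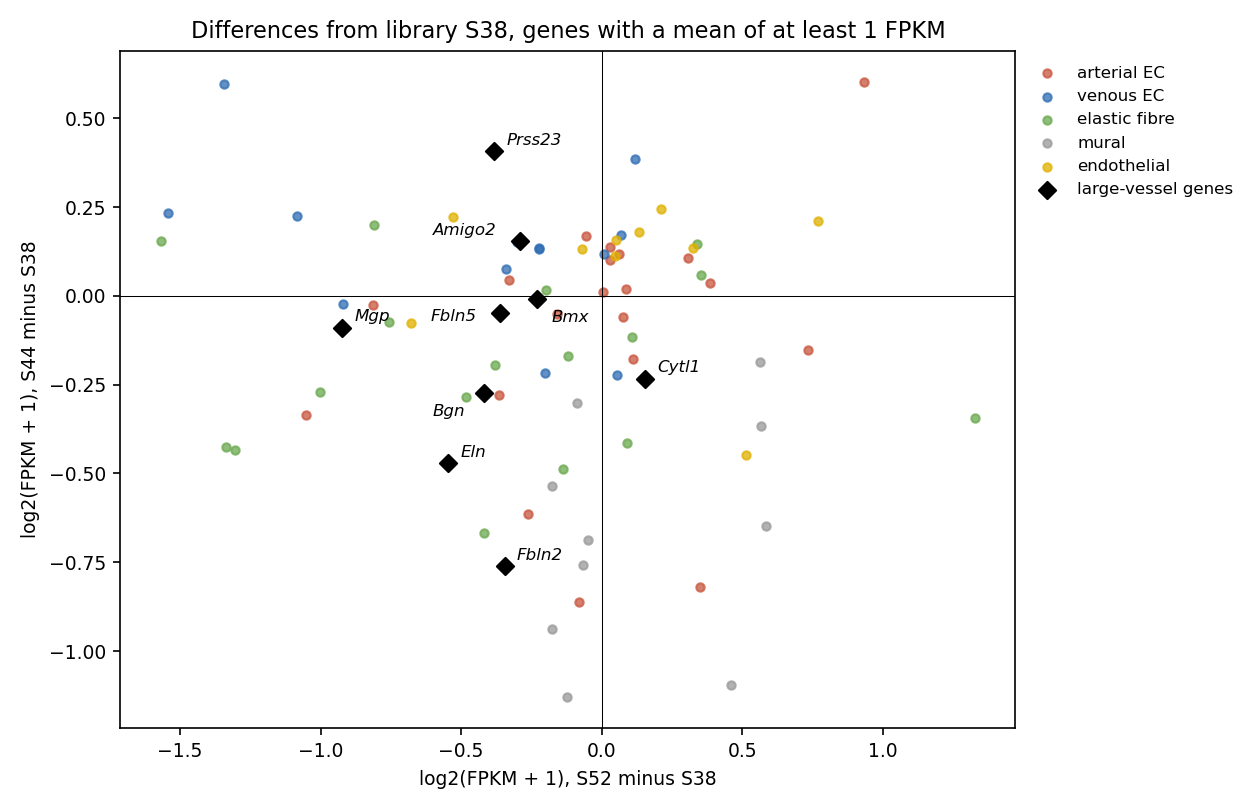
Difference in log2(FPKM + 1) from S38 of S52 (x axis) and S44 (y axis), with 1 point per detected gene of the arterial, venous, elastic fibre, mural and endothelial lists and diamonds for the 9 large-vessel genes. *Prss23* and *Amigo2* lie above 0 on the y axis, and *Fbln2*, at -0.76 on that axis, lies lowest among the diamonds.

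Likeness to single genes was measured as the largest difference over the 3 libraries between log2(FPKM + 1) values, each centred on the gene's own mean. Among the listed genes, the nearest to *Amigo2* was *Ptgs1*, cyclooxygenase 1, at a distance of 0.0049, followed by *Vwf* (0.044) and *Car8* (0.053), all of the venous list. The nearest to *Eln* were *Ogn* (0.038) and *Fmod* (0.10), both proteoglycans, and *Ltbp3* (0.10). The nearest to *Fbln2* were *Cdh13* (0.076) of the arterial list, *Lox* (0.087) and *Tagln* (0.13). *Mgp* was nearest to *Nrp2* (0.042), *Tec* (0.051) and *Clu* (0.059), and *Prss23* to *Cldn5* (0.11), *Car4* (0.14) and *Lyve1* (0.15). *Cytl1* was nearest to *Pdgfra* (0.031), *Sox17* (0.050) and *Nr2f2* (0.069), and *Bgn* to *Col1a1* (0.020), *Jag2* (0.037) and *Ltbp3* (0.039). *Bmx* was nearest to *Mfap2* (0.018), *Dpt* (0.029) and *Unc5b* (0.060), and *Fbln5* to *Ggcx* (0.017), *Vegfc* (0.050) and *Pros1* (0.062). How common such nearness was differed between pairs. The largest count was 525 detected genes (4.46%) at least as near to *Bmx* as *Unc5b*, with *Unc5b* counted. For *Amigo2* the like counts were 2 for *Ptgs1* (0.017%), 145 for *Vwf* and 210 for *Car8*. For the first-named neighbour they were 56 (*Bmx*), 33 (*Fbln5*), 32 (*Fbln2*) and 76 (*Cytl1*). They were 41 for that of *Mgp*, 37 for *Eln*, 153 for *Prss23* and 25 for *Bgn*. Each neighbour was picked as the nearest of many listed genes, so low counts follow in part from that choice. Whether any pair is nearer than such a choice would give was not tested.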

How the data were processed

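The bulk RNA-seq values are those of 3 libraries of adult lung ECs, from poly-A selected RNA read as pairs of 51 bases without strand. The authors deposited FPKM values for each gene symbol on mm10. The submitters' processing notes name Trimmomatic 0.36, TopHat2 2.1.0 and Cufflinks 2.2.1, whereas the paper describes a pipeline of STAR and HTSeq for its counts, and the annotation behind the FPKM values is not given in the sources used here. Library names matched the sample titles, and 0 columns of per-sample values were left out. The values were used as deposited in Python 3.11.15 with numpy 2.4.6 and pandas 2.3.3. Columns sum to 1153890, 1603596 and 1419351 FPKM, with 59.6%, 70.2% and 66.8% from 1287 short noncoding genes recognised by symbol.

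Detection was a mean of 1 FPKM or more. Differences are of log2(FPKM + 1), which understates changes of low genes. FPKM values are not counts, so no count model was fitted. Depth was found as the step that makes low values of 7077 genes (those of 1 basic transcript in GENCODE M21, 800 to 4000 bases long) whole numbers of fragments (within 0.15 for 78.4%, 77.4% and 74.9% of low values). This search was tested on simulated counts of known depth. It was fitted to these values, and fragments per gene are estimates.

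The 9 genes, the lists and the counts were chosen with earlier results of these data known. Named are all 9 genes, the highest and lowest detected gene of each list, genes listed at 0 in all libraries where a list has 5 or fewer, and the 3 listed genes nearest to each of the 9. *Slc6a2*, *Efemp2*, *Fbln1*, *Fbln7*, *Mfap4*, *Ltbp4*, *Csf3r*, *Pced1b*, *Emcn*, *Kdr*, *Gas6*, *Vkorc1*, *Col2a1*, *Acan* and *Ackr1* were named after their values were seen. The same holds for *S100a8*, *S100a9*, *Comp*, *Sox9*, *Efemp1*, *Prox1*, *Serpine2*, *Gja4*, *Vcam1*, *Fibin*, *Gpihbp1* and *Mmrn1*. Lymphatic, mesothelial and leukocyte lists had medians of 4.51, 0.479 and 6.39 FPKM, with 4 of 6, 1 of 4 and 5 of 7 genes detected. The sum of the lymphatic list was 570, 627 and 394 FPKM in S38, S44 and S52, mostly *Lyve1* (mean 509 FPKM). *Prox1* of that list was not detected, with 0.132, 0.173 and 0.598 FPKM, and the lowest detected was *Pdpn* (2.44 FPKM). *Msln* was the detected mesothelial gene (1.82 FPKM). The extremes were *Cd68* (20.3 FPKM) and *Ptprc* (2.26 FPKM) for leukocytes, *Ppbp* (616 FPKM) and *Gp9* (101 FPKM) for platelets, and *Sftpc* (2284 FPKM) and *Lamp3* (13.2 FPKM) for alveolar type 2 cells.

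Alternatives were leaving out each library, 3 scalings of the libraries, other pseudocounts (0.1 and 0), other thresholds and other minimum levels.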

Additional observations from a re-analysis of the deposited data

How the results depend on the processing

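The median of the 9 mean levels was 28.3 FPKM as deposited, 20.6 with each library rescaled to a sum of 1000000, 59.96 with that sum taken over genes other than short noncoding ones, and 28.1 with scaling by the median ratio. Leaving out 1 library gave 27.96 to 30.7. The number of genes over 2-fold between libraries was 0, and it was 2 after rescaling to the sum (25.8% of detected genes), 3 at a threshold of 1.5-fold (41.7%) and 0 at 3-fold (9.36%). The share of detected genes over 2-fold was 20.1%, and it was 13.5% without S38, 14.8% without S44 and 5.06% without S52. The count of 7 genes lowest in S52, chosen after seeing the data, became 5 after rescaling to the sum and was 7 with the other scalings. That rescaling also turned the sign of S52 against S38 for *Cytl1* (-0.14) and of S52 against S44 for *Eln* (0.091) and *Bgn* (0.030), and no pseudocount changed a sign. It shifted the median difference of S44 from S38 over detected genes from -0.033 to -0.44. Library sums are dominated by short noncoding genes, which limits that scaling. With 3 libraries of 1 condition, no result here carries a test.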
